A study of Mus musculus with 13 samples.

Results

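The 46 genes described here encode subunits and assembly factors of respiratory complex I. They are all the rows of the deposited count table whose Ensembl ID maps to a mouse protein-coding symbol starting with Nduf, 46 of the 55471 genes listed, a rule that uses gene names only. By role they are 7 nuclear-encoded core subunits, 29 accessory subunits, 8 assembly factors, and the pair Ndufa4 and Ndufa4l2. All 46 passed the filter on low counts. Messenger RNA of whole mouse hearts was sequenced in 3 groups. The first was R502W mavacamten, 4 libraries from mice with the R502W change in cMyBP-C (cardiac myosin-binding protein C, product of Mybpc3) that received mavacamten, an inhibitor of the cardiac myosin motor, at 2.5 mg/kg/day in drinking water for 21 weeks. The second was R502W control, 4 libraries from R502W mice without the drug, and the last was WT control, 5 libraries from wild-type mice without the drug. The design text gives the age of all mice as 24 weeks, whereas the extraction protocol names hearts of 3 and 18 weeks. The names of the R502W libraries start with KI, which may stand for knock-in. Beyond that the labels give neither how the R502W allele was made, nor whether mice were heterozygous or homozygous for it, nor the strain or sex. No library of drug-treated WT hearts was analysed here.

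Complex I is the largest enzyme of the mitochondrial respiratory chain. It takes electrons from NADH and passes them along a flavin and a row of iron-sulfur clusters to ubiquinone, and it pumps protons across the inner membrane. Its core subunits carry out the chemistry and are encoded partly in the nucleus (Ndufs and Ndufv genes) and partly in mitochondrial DNA (mt-Nd genes). The accessory subunits surround and stabilise the core, and assembly factors join the modules without staying in the finished enzyme. Heart muscle is packed with mitochondria, and complex I transcripts are abundant there. The product of Ndufa4, named after complex I, is now placed in cytochrome c oxidase (complex IV), and Ndufa4l2 is its hypoxia-induced relative.

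Library totals were 16001651 to 17520706 estimated counts for R502W mavacamten, 15350622 to 19361103 for R502W control and 15420583 to 18218404 for WT control. Levels below are CPM on TMM-scaled library sizes unless another scale is named, and a change is a gene with an adjusted p under 0.05 over all 15000 genes tested in edgeR's quasi-likelihood fit. Heart identity was clear, since the 10 cardiomyocyte markers summed to between 57740 and 80140 CPM in R502W mavacamten hearts, between 61360 and 71030 CPM in R502W control hearts, and between 45770 and 64660 CPM in WT control hearts. WT control replicate 2 stood apart: its 8 T cell and thymus markers summed to 470 CPM, with Rag1 at 94.03 CPM, whereas Rag1 stayed at or below 1.63 CPM in every other library, and the sum was 2.337 to 4.866 CPM in R502W mavacamten hearts and 1.243 to 2.788 CPM in R502W control hearts. The 5 endothelial markers summed to 563.9 to 787.0 CPM in R502W mavacamten hearts, 743.4 to 876.2 CPM in R502W control hearts and 499.8 to 661.0 CPM in WT control hearts, with no overlap between R502W control and WT control, and the part of cell composition in the Nduf values was not tested. The atrial marker Bmp10 was under 10 CPM in 3 libraries, 1 of each group, and the fat marker Adipoq was over 50 CPM in 4. Low Bmp10 did not by itself mark a library low in atrial markers. The 5 atrial markers summed to 6076 CPM in WT control replicate 3 (group range 3651 to 8008 CPM). They summed to 5143 CPM in R502W control replicate 1 (group range 4090 to 7953 CPM). In R502W mavacamten replicate 3 the sum was 2988 CPM, the lowest of the 13 libraries. Libraries also differed in how their counts depended on gene length. The rank correlation, across genes, of a library's deviation from the gene mean with exonic length was between 0.11 and 0.22 in R502W mavacamten libraries, between 0.07 and 0.26 in R502W control libraries, and between -0.42 and -0.08 in WT control libraries. These ranges did not overlap between WT control and either R502W group, so genotype and this length dependence cannot be told apart by group alone. Most Nduf transcripts are short: the median principal transcript had 977 bases, and 24 of the 46 were under 1000 bases.

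The 300-base promoter windows (250 bases before and 50 after the transcription start, RefSeq, GRCm38.p6) are shown for the 3 genes that changed in a comparison with WT, Ndufa7, Ndufv2 and Ndufa1, and for Ndufaf4, which had the highest fold change of the 46 in both of those comparisons. Capitals mark matches to the motifs searched on both strands: the NRF1 core, the estrogen-related receptor site, the ETS site, the CCAAT box, the YY1 core and the TATA box, whose letters are given with their counts. The Ndufa7 window lies at chr17:33824322-33824621 on the plus strand, and the table lists 2 windows for this gene, of which the first is shown. That of Ndufv2 lies at chr17:66101510-66101809 on the minus strand, that of Ndufa1 at chrX:37191189-37191488 on the minus strand, and that of Ndufaf4 at chr4:24897833-24898132 on the plus strand. The Ndufa1 window follows the RefSeq start and lies wholly upstream of the gene span in GENCODE (chrX:37187588-37191163).
Ndufa7: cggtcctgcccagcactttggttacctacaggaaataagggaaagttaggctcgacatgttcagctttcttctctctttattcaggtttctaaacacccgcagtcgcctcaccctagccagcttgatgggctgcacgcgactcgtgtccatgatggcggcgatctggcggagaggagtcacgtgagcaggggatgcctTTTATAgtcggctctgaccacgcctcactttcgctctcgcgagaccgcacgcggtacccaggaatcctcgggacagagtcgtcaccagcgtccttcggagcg
Ndufv2: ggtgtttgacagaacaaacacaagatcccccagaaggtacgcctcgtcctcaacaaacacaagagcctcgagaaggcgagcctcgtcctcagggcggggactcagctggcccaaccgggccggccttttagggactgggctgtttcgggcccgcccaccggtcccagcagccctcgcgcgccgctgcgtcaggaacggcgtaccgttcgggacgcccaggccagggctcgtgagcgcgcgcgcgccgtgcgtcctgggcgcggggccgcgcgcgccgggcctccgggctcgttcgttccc
Ndufa1: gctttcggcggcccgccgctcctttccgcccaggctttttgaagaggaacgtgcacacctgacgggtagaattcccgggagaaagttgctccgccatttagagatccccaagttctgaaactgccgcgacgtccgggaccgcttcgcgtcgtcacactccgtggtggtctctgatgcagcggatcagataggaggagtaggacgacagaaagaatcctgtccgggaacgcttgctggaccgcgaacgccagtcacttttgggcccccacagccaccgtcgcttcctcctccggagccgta
Ndufaf4: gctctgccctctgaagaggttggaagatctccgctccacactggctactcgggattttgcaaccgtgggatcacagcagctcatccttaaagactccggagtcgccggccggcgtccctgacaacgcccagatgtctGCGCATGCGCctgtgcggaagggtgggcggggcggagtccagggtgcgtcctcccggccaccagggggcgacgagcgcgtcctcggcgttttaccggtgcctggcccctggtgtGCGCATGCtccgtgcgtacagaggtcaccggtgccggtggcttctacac

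The Ndufa7 window held the TATA box letters on the reverse strand, starting at position -52 from the transcription start, and the Ndufv2 and Ndufa1 windows held none of the 6 motifs. The Ndufaf4 window held the NRF1 core at 3 places: on the reverse strand at -113 and the forward strand at -111, which overlap because the letters read almost alike on both strands, and on the reverse strand at position 2. NRF1 is a transcription factor known for binding promoters of nuclear genes for mitochondrial proteins. Of the 46 genes, 40 had a window in the table. Shares are of genes, and a gene counts if any of its windows held the letters. The NRF1 core, searched as GCATGCGC, was found in 5 of these 40 (12.5%) and in 3.0% of all 27025 genes with a window. The YY1 core, searched as AAGATGG, was found in 20% of the Nduf genes and in 7.3% of all genes. The ETS site, searched as CCGGAAG, was found in 15% of the Nduf genes and in 9.9% of all genes. The estrogen-related receptor site, searched as AAGGTCA, was found in 7.5% of the Nduf genes and in 5.4% of all genes. The CCAAT box was found in 35% of the Nduf genes and in 41.1% of all genes. The TATA box, searched as TATAAA, was found in 10% of the Nduf genes and in 15.7% of all genes. These are letter matches only.

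Levels between genes were compared per length, as TPM (transcripts relative to all transcripts of a library) computed from the counts and the principal transcript length. Ndufa4 averaged 849.0 TPM over the 13 libraries, the highest of the 46. The membrane-arm accessory subunits Ndufb8 and Ndufb9 averaged 770.2 and 737.5 TPM. Ranges over the libraries overlapped near the top of this order, with Ndufa4 from 701.0 to 1019 TPM and Ndufb8 from 706.4 to 837.5 TPM. The order within single libraries was not tested. The 7 core subunits spread over the whole upper range, down to Ndufs8 at 233.6 TPM. All 8 assembly factors lay between 14.56 TPM (Ndufaf6) and 32.39 TPM (Ndufaf1), together with Ndufb2 at 28.25 TPM and Ndufa4l2 at 22.98 TPM, and every other member was at or above 73.35 TPM (Ndufb4). The order depends on the length used: for 12 members the principal transcript is less than 50% of the exonic length, and Ndufb2, with a principal transcript of 4371 bases, is ranked low by it.

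**Figure D1:**
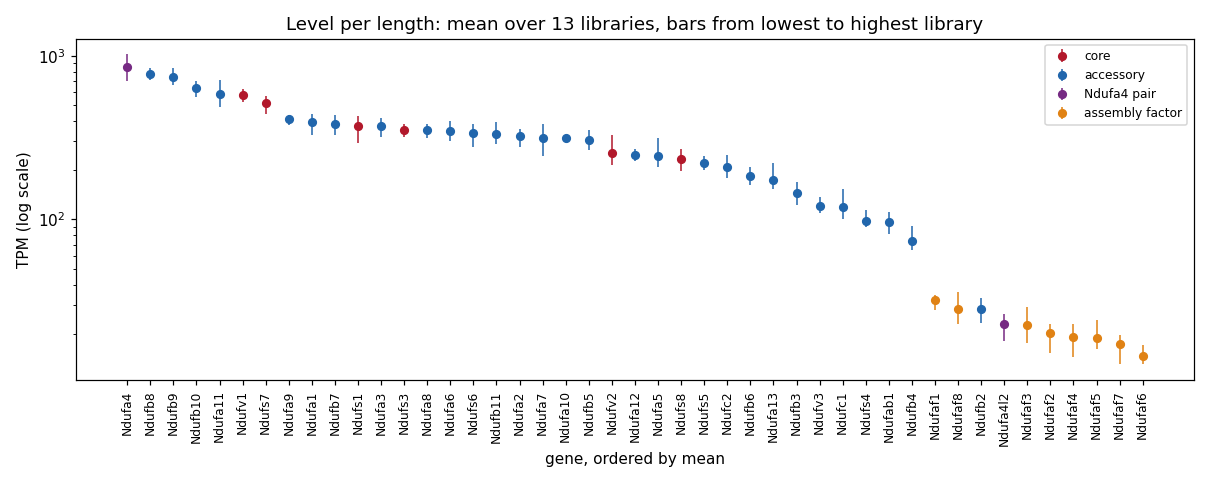
Mean level of 45 of the 46 Nduf genes in TPM by principal transcript length (log axis), with bars from the lowest to the highest of the 13 libraries and colours for the class of gene. The 8 assembly factors, Ndufb2 and Ndufa4l2 sit at or below 32.39 TPM, apart from the other 35 genes shown.

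The first comparison asks how R502W control hearts differed from WT control hearts. The transcripts of 2 complex I subunits fell in R502W control hearts, Ndufa7, an accessory subunit, to 0.75 of the WT control level and Ndufv2, the core iron-sulfur subunit of the NADH-oxidising module, to 0.76 of it, and no Nduf transcript rose. That is 2 of 46 lower, or 4.35%, beside 3.75% of all 15000 genes lower and 8.63% higher, so the share of lower calls was close to the background. Among the 2043 genes tested with a principal transcript of 680 to 1478 bases, the range from the 25th to the 75th percentile of the members, 8.47% were lower and 1.52% higher. Ndufa7 (528 bases) and Ndufv2 (1697 bases) lie outside that range, and of the 23 members within it 0 were called. The other fold changes were small but lay on the same side: 44 of 46 were below 0 on the log2 scale, with a median of -0.17 (11.2% lower). Of all genes tested 51.1% were below 0, with a median of -0.01. Of those 2043 genes of like length 76% were below 0, with a median of -0.18 (11.9% lower). Without a correction for multiple tests, 14 members were lower and 1 was higher at p under 0.05 in edgeR. Of all 15000 genes 1765 were lower and 2596 higher by that measure, and of those 2043 genes 505 were lower and 89 higher. In DESeq2, 10 members were lower and none was higher, among 2466 genes called in either direction, where edgeR called 1856. DESeq2 was run on all genes with a count and gave 9445 of them no adjusted p. Its calls over all genes were not split by direction or length, so no like share stands beside the 10.

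Ndufa7 (ENSMUSG00000041881, chr17:33824572-33838317, plus strand) had 74.01, 86.7, 95.14 and 98.92 CPM in R502W control hearts, against 134.5, 128.8, 109.2, 110.3 and 108.6 CPM in WT control hearts. The groups did not overlap, the highest R502W control library lying below the lowest WT control library. The log2 fold change was -0.42 ± 0.10 (SE; adjusted p = 0.0176, edgeR). Ndufv2 (ENSMUSG00000024099, chr17:66078638-66101559, minus strand) had 215.0, 214.6, 231.7 and 258.0 CPM in R502W control hearts, against 353.0, 350.4, 267.3, 286.5 and 262.3 CPM in WT control hearts. Again the groups did not overlap, but R502W control replicate 4 and WT control replicate 5 were close, and WT control replicates 1 and 2 were the highest. Its log2 fold change was -0.40 ± 0.12 (SE; adjusted p = 0.0394, edgeR). The groups also did not overlap for Ndufs8, Ndufa1 and Ndufa4, which makes 5 of 46 members (10.9%) lying wholly below WT control, beside 5.46% of all genes tested and 11.6% of those 2043 genes of like length.

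Among the other core subunits, Ndufs8 (chr19:3908863-3912774), an iron-sulfur subunit that hands electrons towards ubiquinone, had 114.3, 121.6, 142.6 and 140.8 CPM in R502W control hearts, against 174.9, 171.8, 143.4, 149.0 and 160.3 CPM in WT control hearts. The ranges touch almost at 142.6 and 143.4 CPM, and the log2 fold change of -0.30 ± 0.10 (SE) missed the threshold (adjusted p = 0.0558, edgeR). Ndufs3, Ndufs7 and Ndufv1, of the ubiquinone-reducing and NADH-oxidising modules, had log2 fold changes of -0.20 ± 0.10, -0.18 ± 0.11 and -0.17 ± 0.09 (SE), with adjusted p-values of 0.203 to 0.286 in edgeR. Ndufv1, which binds NADH and the flavin, averaged 536.8 ± 44.69 CPM in R502W control hearts (SD, n = 4) and 604.4 ± 62.37 CPM in WT control hearts (SD, n = 5). Ndufs1, which carries several iron-sulfur clusters, had a log2 fold change of -0.11 ± 0.11 (SE). It averaged 568.6 ± 18.02 CPM in R502W control hearts and 615.5 ± 88.36 CPM in WT control hearts (SD). This difference lies within the spread between libraries.

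The accessory subunits had a median log2 fold change of -0.18, with 28 of 29 below 0, and Ndufa7 was the only one called. Ndufa11, a subunit of the membrane domain, had 152.1, 171.7, 190.2 and 181.7 CPM in R502W control hearts, against 247.5, 246.5, 184.9, 207.3 and 216.4 CPM in WT control hearts. The groups overlap through R502W control replicate 3 and WT control replicate 3, and its log2 fold change was -0.34 ± 0.11 (SE; adjusted p = 0.0643, edgeR). Ndufa1 (ENSMUSG00000016427, chrX:37187588-37191163), a short membrane-spanning subunit, had 86.94, 89.65, 96.71 and 100.8 CPM in R502W control hearts, against 130.6, 117.4, 106.7, 103.9 and 103.0 CPM in WT control hearts. The groups did not overlap, and its log2 fold change of -0.26 ± 0.09 (SE) was not called (adjusted p = 0.0694, edgeR). Ndufb3, a membrane-arm subunit, was the exception among the 29. It had 66.76, 66.92, 73.03 and 73.13 CPM in R502W control hearts, against 74.49, 66.66, 57.4, 54.09 and 68.13 CPM in WT control hearts. The groups overlap, and its log2 fold change was 0.13 ± 0.10 (SE; adjusted p = 0.41, edgeR).

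The 8 assembly factors had a median log2 fold change of -0.11 and none was called. Ndufaf4 (ENSMUSG00000028261, chr4:24898083-24905001, plus strand), which with Ndufaf3 helps build the ubiquinone-reducing module, had 42.07, 43.3, 44.9 and 49.1 CPM in R502W control hearts, against 44.73, 39.84, 33.38, 36.57 and 32.08 CPM in WT control hearts. All R502W control libraries lay above every WT control library but replicate 1. The log2 fold change was 0.27 ± 0.11 (SE; adjusted p = 0.118, edgeR). Ndufaf6, an early assembly factor, averaged 9.487 ± 0.95 CPM in R502W control hearts and 9.516 ± 0.93 CPM in WT control hearts (SD), a log2 fold change of -0.002 ± 0.11 (SE). Ndufa4, outside the enzyme proper, averaged 284.7 ± 14.52 CPM in R502W control hearts and 351.7 ± 49.57 CPM in WT control hearts (SD), with no overlap (adjusted p = 0.0776, edgeR). Its relative Ndufa4l2 averaged 13.11 ± 0.89 CPM in R502W control hearts and 13.15 ± 1.86 CPM in WT control hearts (SD).

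**Figure D2:**
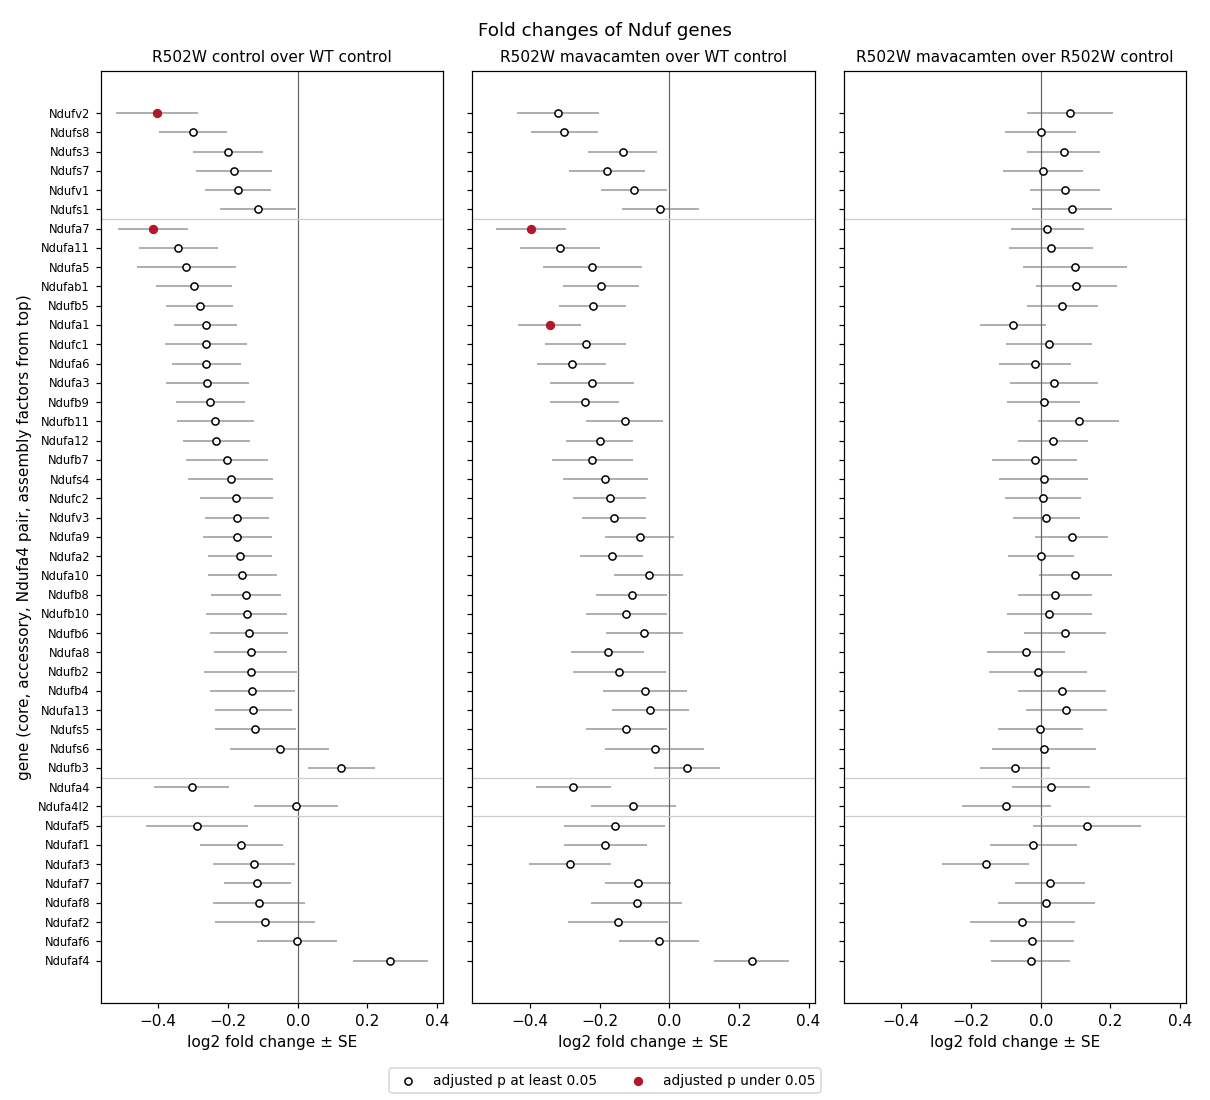
Log2 fold change ± SE (edgeR) of 45 of the 46 Nduf genes for R502W control over WT control, R502W mavacamten over WT control, and R502W mavacamten over R502W control, with genes in rows by class. Filled red points have an adjusted p under 0.05: Ndufv2 and Ndufa7 in the left panel, Ndufa7 and Ndufa1 in the middle panel, and none in the right panel.

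Short genes in general lay on the same side of 0. When the genes tested were cut into 10 bins of like number by principal transcript length, the shortest bin (192 to 1160 bases, 1500 genes) held 29 of the 46 members. The median log2 fold change of R502W control over WT control was -0.19 over the genes of that bin and 0.33 over the 1497 genes of the longest bin. In the 2 next shortest bins, with 8 and 5 members, it was -0.16 and -0.15. Over the exonic length range of the members, 419 to 8086 bases, the median of all 12410 genes tested was -0.05. When the dependence on exonic length was removed from each library, the median over the members became -0.08, with 32 of 46 below 0, beside 54.2% of all genes. Then 1 member was lower, Ndufab1 (-0.43 ± 0.12, SE; adjusted p = 0.0421, edgeR), and 1 was higher, Ndufb3, beside 3.6% of genes lower and 5.2% higher. Ndufa7 (-0.28, adjusted p = 0.0577) and Ndufv2 (-0.29, adjusted p = 0.094) were no longer called in edgeR. With principal transcript lengths the median was -0.04, with 28 of 46 below 0, beside 54.3% of all genes. No member was lower then and Ndufb3 alone was higher (0.31 ± 0.08, SE; adjusted p = 0.041, edgeR), beside 2.89% of genes lower and 4.66% higher. Ndufab1, the mitochondrial acyl carrier protein, which also serves lipoic acid and iron-sulfur cluster synthesis, is given by the annotation a principal transcript of 3479 bases and 6883 exonic bases, so its corrected value rests on that length.

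The number of members below WT control also depends on how libraries are scaled. TPM multiplies all genes of a library by 1 common factor, so a gene's length cancels in a ratio between libraries and the length dependence stays. As TPM by exonic length the median log2 ratio of R502W control to WT control was 0.16 over all genes tested and 0.002 over the members, of which 22 of 46 were lower in R502W control. By principal transcript length 27 of 46 were lower, with a median of -0.02. For R502W mavacamten against WT control the median by exonic length was 0.08 over all genes tested and -0.08 over the members, with 35 of 46 lower, and by principal length 36 of 46 were lower. A lower level relative to other transcripts in whole heart can come from less RNA per cell or from fewer cells of a type, and these cannot be told apart.

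**Figure D3:**
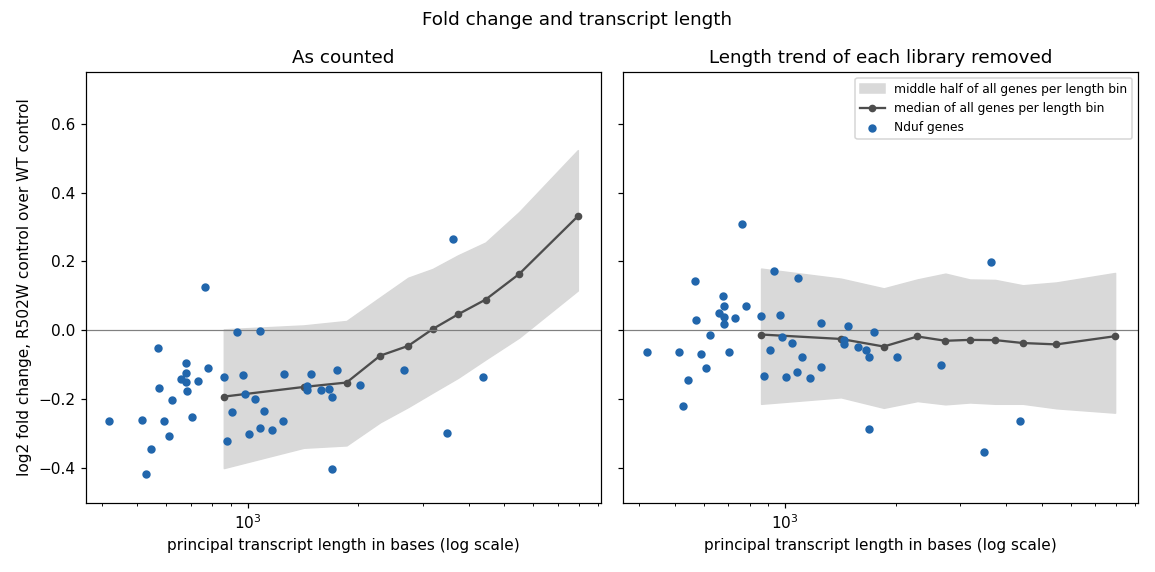
Log2 fold change of R502W control over WT control against principal transcript length in bases (log axis), as counted on the left and with each library's length trend removed on the right. The grey line and band are the median and the range from the 25th to the 75th percentile of all genes in 10 length bins, and blue points are 45 of the 46 Nduf genes; as counted, most of them lie below 0 beside the short-gene medians of -0.19 and -0.16, and on the right they lie around 0.

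The spread within WT control hearts was wide. The 46 members summed to 6886 to 7980 CPM in R502W control hearts (mean 7443 ± 531.8, SD, n = 4) and to 7511 to 9898 CPM in WT control hearts (mean 8508 ± 941.3, SD, n = 5), and these ranges overlap. WT control replicates 1 and 2 were the highest, at 9898 and 8959 CPM, and replicate 1 also had the highest sum of mitochondrially encoded complex I transcripts of the 13 libraries, 112700 CPM. Without WT control replicate 1 the median over the members was -0.14 and Ndufv2 was not called (-0.36, adjusted p = 0.055, edgeR). Without WT control replicate 2, the library with thymus transcripts, it was -0.18 and both calls held. With both left out the median was -0.10, Ndufa7 was still lower (-0.33, adjusted p = 0.0452, edgeR), Ndufv2 was not (-0.27, adjusted p = 0.109, edgeR), and Ndufaf4 was called higher. Without the 3 libraries low in Bmp10 neither Ndufa7 (-0.39, adjusted p = 0.0701) nor Ndufv2 (-0.44, adjusted p = 0.0864) was called in edgeR, and without R502W control replicate 1 alone no member was called. Ndufv2 was also not called without WT control replicate 4 or R502W control replicate 2 or 3. Members varied together from library to library: over the 13 libraries, after subtracting group means, the mean Pearson r between pairs of members was 0.72, a description of libraries that share depth, scaling and length dependence. Ndufaf7 (median r 0.34), Ndufs1 (0.39) and Ndufaf2 (0.42) followed the other members least.

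**Figure D4:**
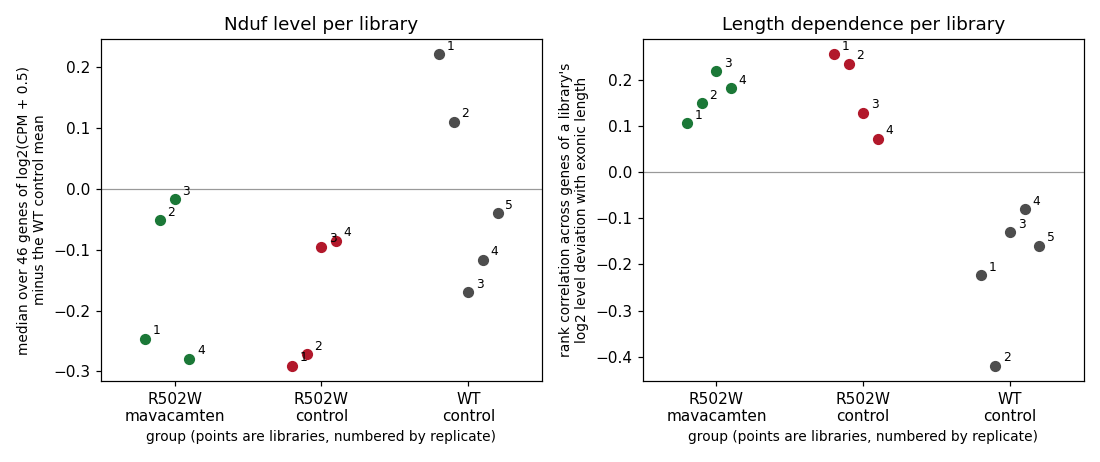
Left, the median over the 46 Nduf genes of log2(CPM + 0.5) minus the WT control mean, for each library (points numbered by replicate) of R502W mavacamten, R502W control and WT control; right, the rank correlation across genes of each library's level deviation with exonic length. The WT control libraries spread from -0.17 to 0.22 on the left and overlap both R502W groups, whereas on the right all WT control libraries lie below 0 and all R502W libraries above it.

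The second comparison asks what mavacamten changed within R502W hearts. No Nduf transcript passed the test in either direction, beside 0% of all genes in each direction. No member had an unadjusted p under 0.05 in edgeR, where 525 of the 15000 genes did, and DESeq2 called 6 genes, none of them a member. The median log2 fold change over the members was 0.02, with 32 of 46 above 0. That of all genes was 0.004, with 7626 of 15000 above 0. The groups overlapped for all 46, beside 2.87% of all genes whose groups did not overlap. The 95% intervals of the single members ran from -0.42 (Ndufaf3) at the lowest to 0.46 (Ndufaf5) at the highest.

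Assembly factors stood at both ends of the range. Ndufaf5, which modifies the core subunit Ndufs7 during assembly, had 10.02, 14.8, 15.23 and 12.38 CPM in R502W mavacamten hearts, against 11.43, 11, 13.84 and 11.45 CPM in R502W control hearts, a log2 fold change of 0.13 ± 0.15 (SE). The treated libraries lay on both sides of the untreated ones. Ndufb11, an X-linked membrane-arm subunit, had 160.6, 196.0, 191.6 and 169.2 CPM in R502W mavacamten hearts, against 152.4, 154.7, 175.8 and 182.2 CPM in R502W control hearts, a log2 fold change of 0.11 ± 0.12 (SE). Ndufab1 averaged 194.9 ± 25.71 CPM in R502W mavacamten hearts and 181.5 ± 16.1 CPM in R502W control hearts (SD, n = 4 each), with a log2 fold change of 0.10 ± 0.12 (SE). At the other end, Ndufaf3 had 16.71, 18.34, 17.85 and 19.03 CPM in R502W mavacamten hearts, against 19.27, 17.84, 21.44 and 21.7 CPM in R502W control hearts, a log2 fold change of -0.16 ± 0.12 (SE). Ndufa4l2 and Ndufa1 followed at -0.10 ± 0.13 and -0.08 ± 0.09 (SE).

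The core subunits lay between -0.0005 (Ndufs8) and 0.09 (Ndufs1). Ndufs1 averaged 604.9 ± 68.15 CPM in R502W mavacamten hearts and 568.6 ± 18.02 CPM in R502W control hearts (SD, n = 4 each). Ndufv2, called lower in R502W control against WT control, had 229.5, 243.8, 287.7 and 213.5 CPM in R502W mavacamten hearts, against 215.0, 214.6, 231.7 and 258.0 CPM in R502W control hearts. The log2 fold change was 0.08 ± 0.12 (SE), with a 95% interval from -0.18 to 0.35. Ndufa7 had 85.08, 89.39, 99.21 and 85.87 CPM in R502W mavacamten hearts, against 74.01, 86.7, 95.14 and 98.92 CPM in R502W control hearts. Its log2 fold change was 0.02 ± 0.11 (SE), with an interval from -0.21 to 0.24. The sums over the 46 members were 6945 to 8565 CPM in R502W mavacamten hearts (mean 7691 ± 783.6, SD) and 6886 to 7980 CPM in R502W control hearts (mean 7443 ± 531.8, SD). In both groups the libraries split into a lower and a higher pair: replicates 1 and 4 summed to 7120 and 6945 CPM and replicates 2 and 3 to 8132 and 8565 CPM in R502W mavacamten hearts, and replicates 1 and 2 to 6886 and 7100 CPM and replicates 3 and 4 to 7807 and 7980 CPM in R502W control hearts.

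The last comparison sets R502W mavacamten hearts against WT control hearts, and it shares its WT libraries with the first. Ndufa7 and Ndufa1 fell and no Nduf transcript rose. That is 2 of 46 lower (4.35%), beside 2.29% of all genes lower and 5.93% higher. Among the 2043 genes with principal transcripts of 680 to 1478 bases 5.48% were lower and 1.08% higher. Ndufa7 (528 bases) and Ndufa1 (419 bases) lie outside that range, and of the 23 members within it 0 were called. The median over the members was -0.16 (10.3% lower), with 44 of 46 below 0. Of all genes 49.7% were below 0, with a median of 0.002. Of those 2043 genes 75.9% were below 0, with a median of -0.18 (11.8% lower). Ndufa7 had 85.08, 89.39, 99.21 and 85.87 CPM in R502W mavacamten hearts, all below the WT control libraries, which had 108.6 CPM or more, and its log2 fold change was -0.40 ± 0.10 (SE; adjusted p = 0.0306, edgeR). Ndufa1 had 81.43, 92.09, 97.8 and 82.78 CPM in R502W mavacamten hearts, against 103.0 CPM or more in WT control hearts, and its log2 fold change was -0.34 ± 0.09 (SE; adjusted p = 0.0349, edgeR). Ndufv2 overlapped through R502W mavacamten replicate 3 and had a log2 fold change of -0.32 ± 0.12 (SE; adjusted p = 0.107, edgeR). Both calls held without WT control replicate 2. Ndufa7 lost its call in 3 of the 13 fits that leave out 1 library, those without R502W mavacamten replicate 1, 2 or 4, and Ndufa1 lost its own in 5 of 13, those 3 and the ones without WT control replicate 3 or R502W control replicate 3. Together with Ndufs8, 3 of 46 members (6.52%) lay wholly below WT control, beside 3.78% of all genes and 9.06% of the genes of like length.

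The members above WT control were again Ndufaf4 and Ndufb3. Ndufaf4 had 42.65, 44.21, 50.99 and 38.01 CPM in R502W mavacamten hearts, against 44.73, 39.84, 33.38, 36.57 and 32.08 CPM in WT control hearts. The groups overlap, and its log2 fold change was 0.24 ± 0.11 (SE; adjusted p = 0.184, edgeR). Ndufb3 had a log2 fold change of 0.05 ± 0.10 (SE). Ndufs1 was close to WT control, at -0.03 ± 0.11 (SE). With the dependence on exonic length removed, no member was called between these groups (beside 1.72% of genes lower and 2.49% higher) and the median was -0.03. With principal transcript lengths none was called (beside 1.06% lower and 1.95% higher) and the median was 0.008. None was lower without the 3 libraries low in Bmp10 or with WT control replicates 1 and 2 left out together.

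**Figure D5:**
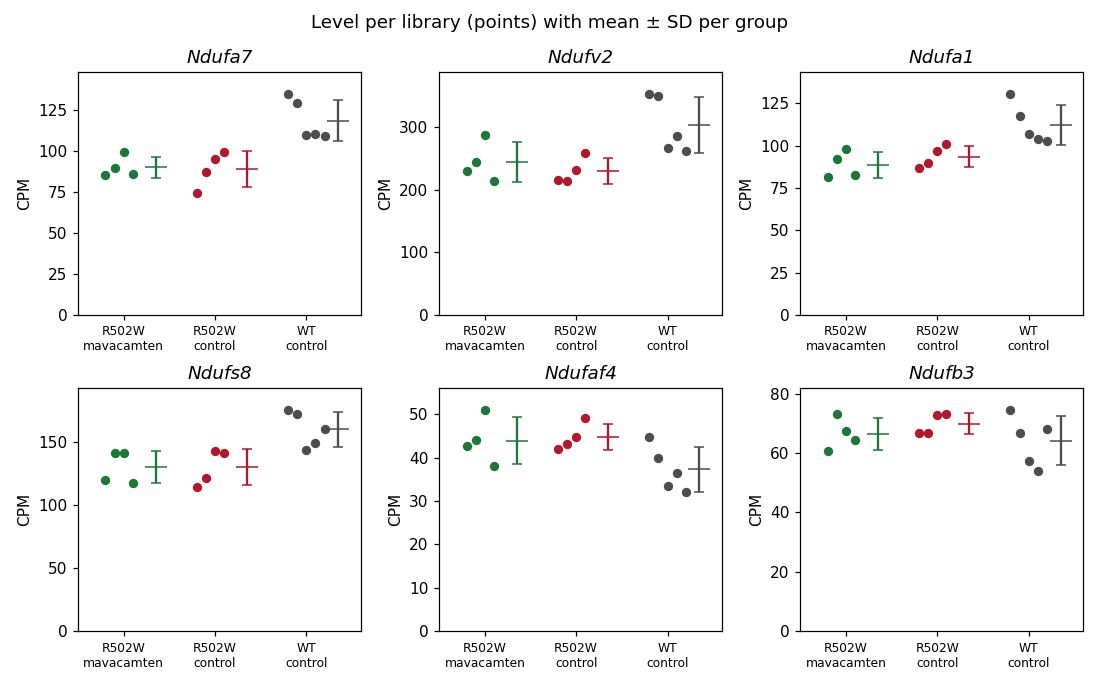
Level in CPM of 6 Nduf genes in each library (points) with the mean ± SD beside them, for R502W mavacamten, R502W control and WT control. All points of both R502W groups lie below the WT control points for Ndufa7, Ndufa1 and Ndufs8, whereas the groups overlap for Ndufb3 and Ndufaf4, and for Ndufv2 a single R502W mavacamten library, at 287.7 CPM, reaches the WT control range.

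The core subunits encoded in mitochondrial DNA, which form the proton-pumping membrane arm, gave no call. None of the 7 mt-Nd genes passed the test in any comparison, nor had an unadjusted p under 0.05 in edgeR as counted. Their median log2 fold change was -0.03 for R502W control over WT control, 0.11 for R502W mavacamten over R502W control and -0.03 for R502W mavacamten over WT control. In the first of these 4 were below 0 and 3 above, and the median was the value of mt-Nd4l (-0.03 ± 0.37, SE). There mt-Nd1, mt-Nd2 and mt-Nd4 were at -0.21 ± 0.18, -0.22 ± 0.18 and -0.26 ± 0.17, and mt-Nd3 at 0.61 ± 0.47 (SE). With principal length trends removed, the medians over WT control were 0.11 for R502W control and 0.19 for R502W mavacamten. The 7 mt-Nd genes summed to 63440 to 105100 CPM in R502W mavacamten hearts, 68190 to 82960 CPM in R502W control hearts and 75370 to 112700 CPM in WT control hearts. The 10 assembly factors of complex I not named Nduf had no member called in any comparison as counted, with a median of -0.04 for R502W control over WT control. Timmdc1, a membrane-arm assembly factor, had the highest value at 0.30 ± 0.12 (SE; adjusted p = 0.123, edgeR). It was called higher once the length trend was removed, by exonic length (0.43, adjusted p = 0.0367, edgeR) or principal length (0.42, adjusted p = 0.0443, edgeR). That is 1 of 10 genes (10%) under each correction, beside 5.2% and 4.66% of all genes higher. Dmac1, of the distal membrane arm, had the lowest at -0.35 ± 0.13 (SE; adjusted p = 0.0865, edgeR).

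Of the nuclear genes of the other respiratory complexes, 4 of 4 of complex II, 8 of 9 of complex III, 15 of 15 of complex IV and 13 of 15 of complex V had a log2 fold change below 0 in R502W control hearts relative to WT control hearts. The exceptions were Uqcr11 (0.14), Atp5k (0.07) and Atp5g2 (0.28). In this comparison 51.1% of all genes were below 0, and 76% of the 2043 genes with principal transcripts of 680 to 1478 bases. Called lower were 3.75% of all genes and 8.47% of those 2043 genes. Of complex II (succinate dehydrogenase) 0 of 4 were called, with a median log2 fold change of -0.21, and Sdhb and Sdhc had unadjusted p-values under 0.05. Of complex III, 3 of 9 (33.3%) fell (median -0.23): the small subunits Uqcrh (-0.55 ± 0.10, SE; adjusted p = 0.00481), Uqcrb (-0.42 ± 0.12, SE) and Uqcr10 (-0.31 ± 0.10, SE). Of complex IV, 2 of 15 (13.3%) fell (median -0.28), the small subunits Cox7a2 (-0.53 ± 0.10, SE) and Cox6c (-0.52 ± 0.11, SE). Of complex V, the ATP synthase, 3 of 15 (20%) fell (median -0.26): Atp5l (-0.50 ± 0.10, SE), Atp5e (-0.45 ± 0.12, SE) and Atp5o (-0.41 ± 0.11, SE). With each library's dependence on principal transcript length removed, 1 of complex III, 2 of complex IV and 2 of complex V were lower, beside 2.89% of all genes, and the medians were -0.10, -0.08 and -0.11. Between R502W mavacamten and R502W control none of these genes was called. Between R502W mavacamten and WT control, 1 gene of complex III fell, Uqcrh (-0.54), with 2 of complex IV, Cox7a2 (-0.49) and Cox6c (-0.39), and 2 of complex V, Atp5l (-0.36) and Atp5o (-0.37), beside 2.29% of all genes and 5.48% of those 2043 genes. With the dependence on principal length removed, none of complexes IV and V was called, beside 1.06% of all genes lower and 1.95% higher. In complex III Uqcrh stayed lower (-0.32) and Uqcr11 was called higher (0.45). With exonic lengths 1 gene of complex IV and 1 of complex V stayed lower, beside 1.72% of all genes lower and 2.49% higher. In complex III Uqcrh was lower (-0.36) and Uqcr11 higher (0.42) by exonic lengths too.

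Of 12 transcriptional regulators of respiratory genes, 2 (16.7%) rose in R502W control hearts relative to WT control hearts, beside 8.63% of all genes, and none fell. Ppargc1b, a coactivator of mitochondrial gene transcription, averaged 25.79 ± 4.10 CPM in R502W control hearts (SD, n = 4) and 11.09 ± 3.99 CPM in WT control hearts (SD, n = 5), a log2 fold change of 1.22 ± 0.23 (SE; adjusted p = 0.00534, edgeR). Esrrb, an estrogen-related receptor, averaged 28.94 ± 3.32 CPM in R502W control hearts and 20.47 ± 2.61 CPM in WT control hearts (SD), a log2 fold change of 0.50 ± 0.12 (SE; adjusted p = 0.0183, edgeR). In R502W mavacamten hearts Ppargc1b averaged 26.4 ± 1.73 CPM (SD, n = 4), and its log2 fold change over WT control was 1.25 (adjusted p = 0.00923, edgeR), the only call among the 12 (8.33%, beside 5.93% of all genes). Esrrb was not called there (0.33, adjusted p = 0.107, edgeR). Tfam, Nrf1 and Gabpa, which drive mitochondrial DNA maintenance and nuclear respiratory genes, had log2 fold changes of -0.01, 0.004 and 0.09 for R502W control over WT control, none of them called. Ppara (1.15 ± 0.40, SE; adjusted p = 0.0755, edgeR) and Ppargc1a (0.51 ± 0.22, SE; adjusted p = 0.148, edgeR) were higher but not called. Of the 12, 9 were above 0 in R502W control over WT control, beside 7339 of all 15000 genes. With the exonic length trend removed 7 of 12 were above 0, beside 6871 of 14990 genes. With principal lengths it was again 7 of 12, beside 6846 of 14990 genes. Ppargc1b and Esrrb stayed called higher under both, beside 5.2% and 4.66% of genes. With principal lengths Esrrb was at 0.40 (adjusted p = 0.0472, edgeR) and Ppargc1a at 0.27. WT control replicate 2, with thymus transcripts, was the lowest library for Ppargc1b (4.68 CPM), Ppara (2.1 CPM) and Ppargc1a (30.72 CPM).

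How reads were shared between like genes limits some members. Estimated counts of Ndufb4 and Ndufb6 were fractional in all 13 libraries, those of Ndufab1 in 84.6% of them, Ndufs1 in 69.2% and Ndufb5 in 53.8%, which marks reads divided among genes, and 38 members had whole numbers throughout. The row of the processed pseudogene Ndufb4c held 672 to 1123 counts per library, so the level of Ndufb4 is uncertain. Exons of 19 members overlap those of another gene, mostly on the opposite strand, such as Ndufa11 with Vmac and Ndufs6 with Mrpl36. The libraries were strand-specific, but the strand setting of the counting is not given in the sources used here. No such overlap was found for Ndufa7, Ndufv2, Ndufa1, Ndufs8, Ndufaf4 or Ndufb3.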

How the data were processed

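Per the labels' protocols, poly(A)-selected, strand-specific libraries were sequenced from whole hearts on an Illumina platform. The authors deposited expected counts per Ensembl gene, made with RSEM according to the submitters' processing notes (per the labels), which also name cutadapt, FastQC, DESeq2 and GRCm38 without versions; aligner and strand setting are not given in the sources used here. Gene symbols, lengths and overlaps came from GENCODE M21 (55230 of 55471 IDs), principal transcripts from its APPRIS tags, and promoters from RefSeq (GRCm38.p6).

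The deposited values, rounded to integers, went through edgeR 4.0.16 (R 4.3.3): filterByExpr (minimum count 10, minimum total 15; 15000 genes kept), TMM factors, 1 quasi-likelihood fit with a mean per group over 13 libraries, and Benjamini-Hochberg adjustment over all genes (threshold 0.05). Whether every library comes from its own mouse is not stated; p-values therefore reflect library-to-library spread only, which may be technical. The 22 within-group pairs of libraries differed beyond sampling noise (chi-square per degree of freedom 7.745 to 112.5). Replicate numbers did not pair libraries: 1 of 12 same-number pairs correlated above 0.1. Members and lists were chosen with earlier results of these data known. Full values are given for members called in any comparison, the 7 nuclear core subunits, and the 3 highest and 3 lowest fold changes per comparison; other members and list genes were named after their values were seen. The length trend was a loess fit (span 0.4) per library, used as offsets. The fit was tested on simulated counts with known changes. Without a length trend it recovered 28.3% of 1.5-fold and 96% of 4-fold changes for R502W control over WT control. For R502W mavacamten over WT control it recovered 21.2% and 78%. Simulated length trends were given to libraries at random, so they cannot show how the length correction behaves where the trend follows genotype. Alternatives were RLE factors, no filter, DESeq2 1.42.0, only the 2 groups compared, a replicate block, exonic length trends, leaving out each library, and leaving out the libraries low in Bmp10 or high in Adipoq. Principal length trends, and leaving out WT control replicates 1 and 2 together, were added after seeing the data. Values of 1 core subunit are not reported here; it is counted in the totals and medians.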

Additional observations from a re-analysis of the deposited data

Results flagged for a closer look

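In R502W control hearts, 1 library lay apart from the other 3 for 2 members. Ndufaf5 was at 13.84 CPM in replicate 3, with the others between 11 and 11.45 CPM, and Ndufc2, a membrane-arm accessory subunit, was at 94.31 CPM in replicate 4, with the others between 76.4 and 77.27 CPM. These are 2 of 141 groups of values examined by Dixon's criterion, of which chance alone picks out about 1 in 20. Neither gene was called in any comparison.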

How the results depend on the processing

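For R502W control over WT control, the number of members lower (2) was 4 with RLE factors, 10 with DESeq2, 1 with only the 2 groups, 0 with a replicate block, 1 with the exonic length trend removed, 0 with block and length trend together, 0 without the libraries low in Bmp10, 1 without those high in Adipoq, 0 with the principal length trend removed and 1 without WT control replicates 1 and 2. The number higher (0) was 1 under either length correction and 1 without those 2 WT libraries. All genes called (1856) were 2466 with DESeq2, 963 with the block, 623 with block and length trend, 404 without the low Bmp10 libraries, 1145 without the high Adipoq libraries and 1132 with principal lengths. For R502W mavacamten over WT control, the members lower (2) were 1 without the filter, 7 with DESeq2, 1 without the high Adipoq libraries, and 0 with only the 2 groups, the block, either length correction, block and length trend, the low Bmp10 libraries left out, or WT control replicates 1 and 2 left out. The median over the members was 0.0076 with principal lengths. All genes called (1232) were 740 without the filter, 216 with only the 2 groups, 349 with the block, 631 with the exonic length trend removed, 145 with block and length trend, 86 without the low Bmp10 libraries, 653 without the high Adipoq libraries and 451 with principal lengths. For R502W mavacamten over R502W control, DESeq2 called 6 genes and every other alternative 0. Leaving out each library in turn gave 0 (without R502W control replicate 1) to 5 (without R502W mavacamten replicate 3) members lower and 866 (without R502W control replicate 2) to 1870 genes called for R502W control over WT control, and 0 to 2 members and 359 (without R502W mavacamten replicate 2) to 1213 genes for R502W mavacamten over WT control, with medians of -0.22 to -0.14 and -0.21 to -0.12. Ndufa7 lost its call in R502W control only without R502W control replicate 1 (-0.34), and Ndufv2 lost its own without WT control replicate 1 or 4 or R502W control replicate 1, 2 or 3 (-0.46 to -0.36 over all 13). In R502W mavacamten over WT control, Ndufa7 lost its call without R502W mavacamten replicate 1, 2 or 4, and Ndufa1 without these, WT control replicate 3 or R502W control replicate 3 (-0.46 to -0.36 and -0.41 to -0.30 over all 13). No direction of a called member reversed. Apart from settings that leave out samples, the cause of these shifts was not tested. Replicate numbers do not pair these libraries: each correlated best with its own number in 1 of 12 cases, and r ran from -0.32 to 0.25. The SE of single members, 0.11 at the median in the comparisons with WT, limits what could be called.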
